A study of Mus musculus with 8 samples.

Results

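The genes described are those of the major histocompatibility complex (MHC) class II pathway and its master regulator in mouse skin: Cd74, H2-Aa, H2-Ab1, H2-Eb1, H2-DMa, H2-DMb1 and Ciita. They were taken by name, through their Ensembl identifiers, from a table of raw read counts, and make up 7 of its 46078 genes. The table holds bulk RNA sequencing of Lgr5-traced cells, hair follicle stem cells and their progeny marked through the Lgr5 reporter, sorted from the epidermis of mice after skin injury. The mice carried the strain label Lg5-egfp-ires-creert2/R26-tdTomato, in which the Lgr5 locus drives an inducible Cre and Cre switches on a red reporter, and all 8 libraries share that label, the cell type and the injury. Treg-depleted mice (labelled as depleted of regulatory T cells, n = 4 libraries) were set against Treg-sufficient mice (regulatory T cells present, n = 4), and in each condition replicates 1 and 2 belonged to experiment 1 and replicates 3 and 4 to experiment 2. The sources used here do not give the age of the mice, the way regulatory T cells were depleted, the kind of injury or the time from injury to sorting. No label states that replicates are different mice, and p-values therefore cover the spread among these samples alone, which may be technical. In a bulk sample, fewer cells of a type and less RNA per cell cannot be told apart.

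MHC class II molecules display peptides from proteins taken up by a cell to CD4+ T cells, and are made mainly by dendritic cells, Langerhans cells, macrophages and B cells. An alpha and a beta chain pair around the invariant chain, encoded by Cd74, and H2-M, encoded by H2-DMa and H2-DMb1, then helps to exchange the invariant chain's remnant for a peptide. Ciita, the class II transactivator, does not bind DNA itself: it is recruited by factors sitting on the X and Y boxes of class II promoters. Interferon-gamma, acting in part through Irf1, switches Ciita on in cells such as keratinocytes, which otherwise make little of it.

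Promoter sequences are shown because class II genes carry the boxes through which Ciita acts. RefSeq's table of windows from 250 bases before to 50 bases after a start site (GRCm38.p6) matched 4 of the 7 genes, H2-Aa, H2-Eb1, H2-DMb1 and H2-DMa. The 120 bases before the start site are shown for 3 of them and for Irf1. Irf1 was added as the listed pathway gene called between conditions in experiment 1, a call that leaving out most single libraries removed. Capitals mark the X box (CNAGNNA followed at once by CNGATG), the Y box (GATTGG, or CCAATC on the other strand), the cAMP response element (TGACGTCA) and the gamma-interferon activation site (TTCNNNGAA). All 4 motifs were searched on both strands.
H2-Aa promoter (chr17:34287824-34287943, minus strand): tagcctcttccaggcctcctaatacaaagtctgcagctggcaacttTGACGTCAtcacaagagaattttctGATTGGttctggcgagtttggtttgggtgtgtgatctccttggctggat
H2-Eb1 promoter (chr17:34305747-34305866, plus strand): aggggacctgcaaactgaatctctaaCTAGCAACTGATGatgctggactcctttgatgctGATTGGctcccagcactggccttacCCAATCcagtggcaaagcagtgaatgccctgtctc
H2-DMb1 promoter (chr17:34153071-34153190, plus strand): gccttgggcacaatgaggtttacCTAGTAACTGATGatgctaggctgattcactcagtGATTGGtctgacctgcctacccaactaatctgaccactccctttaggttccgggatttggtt
Irf1 promoter (chr11:53769894-53770013, plus strand): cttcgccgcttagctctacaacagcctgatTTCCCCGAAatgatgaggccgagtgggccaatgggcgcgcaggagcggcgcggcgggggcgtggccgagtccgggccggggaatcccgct

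The X box lay 94 to 82 bases before the start site of H2-Eb1 and 97 to 85 before that of H2-DMb1, each followed downstream by a Y box, at 60 to 55 and 62 to 57 bases. Of 32851 windows in the table, 88 (0.268%) held this X box and 14 (0.0426%) held both boxes. H2-Aa had a Y box at 49 to 44 bases and a cAMP response element at 74 to 67 bases, motifs found in 16.1% and 1.79% of windows. H2-DMa had 2 windows, of which the one at the second start site held a Y box, at 199 to 194 bases. Irf1 also had 2 windows, of which the one at the first start site is shown and the second held no match. The gamma-interferon activation site in the first, at 90 to 82 bases, is a pattern that 8.30% of windows hold. No match overlapped another. These are matches of letters only, and a window without a match, such as that of H2-Aa for the X box, may hold a box that departs from the pattern. The start of H2-DMb1 in GENCODE M21 lies inside the stretch shown, so the 2 annotations differ there.

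The libraries held 22330729 to 29975347 counts over genes. Hair follicle keratinocyte markers (10 genes, Lgr5, Krt5 and Krt14 among them) were summed in CPM, a gene's reads as a share of its library's total scaled to a fixed size. The sums, mostly keratins, were 17725 to 31900 CPM in Treg-depleted and 20592 to 29723 CPM in Treg-sufficient libraries, so all 8 carried keratinocyte RNA. Lgr5 itself was at 289 to 539 CPM in Treg-depleted and 350 to 498 CPM in Treg-sufficient libraries. Xist was at 72.0 CPM in Treg-depleted replicate 2 and 2713 CPM in Treg-sufficient replicate 2, against 0.967 to 2.26 CPM in the other 6. Treg-depleted replicate 2 and Treg-sufficient replicate 3 had the fewest genes with a count, 18605 and 19593, against 21720 to 23062 in the rest.

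All 7 class II pathway genes passed edgeR's filter on low counts, which 16495 genes passed, yet all were lowly expressed. Levels are given as CPM on library sizes scaled with edgeR's TMM factors. Per kilobase of exon, mean levels over the 8 libraries ran from 6.15 CPM per kb for H2-DMb1 through 2.26 for Cd74, 0.973 for H2-Eb1, 0.675 for H2-DMa, 0.620 for H2-Ab1 and 0.499 for H2-Aa to 0.0631 for Ciita. H2-DMb1 was the highest of the 7 per kilobase in each library and Ciita the lowest. The ranges over libraries of the 4 genes from H2-Eb1 to H2-Aa overlap. They were 0.411 to 1.91 for H2-Eb1, 0.411 to 1.09 for H2-DMa, 0.134 to 1.77 for H2-Ab1 and 0.191 to 1.53 for H2-Aa. Within each library H2-Eb1 was above H2-Ab1, and no other pair of the 4 kept the same order in every library. The beta chain of H2-M has a near-identical copy, H2-DMb2, and reads aligned to several places were not counted, so the level of H2-DMb1 is uncertain.

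The regulator Ciita (ENSMUSG00000022504, GRCm38 chr16:10480059-10528418, plus strand) had 47, 6, 14 and 18 reads in Treg-depleted replicates 1 to 4, against 15, 28, 0 and 7 in Treg-sufficient replicates 1 to 4. That is 1.62, 0.287, 0.543 and 0.639 CPM in Treg-depleted libraries and 0.545, 0.956, 0 and 0.232 CPM in Treg-sufficient libraries. The groups overlapped: Treg-depleted replicate 1 was highest and Treg-sufficient replicate 3 had no read, where 3 reads of its total would be 0.113 CPM. At such counts the error of counting alone is wide. The exact Clopper-Pearson 95% interval for the 6 reads of Treg-depleted replicate 2 is 0.0986 to 0.585 CPM of the unscaled total, and such intervals and limits cover counting error only.

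Cd74 (ENSMUSG00000024610, chr18:60803848-60812652, plus strand), the chaperone of newly made class II dimers, stood at 10.8, 4.11, 2.95 and 2.63 CPM in Treg-depleted replicates 1 to 4, against 2.07, 3.21, 0.953 and 3.68 CPM in Treg-sufficient replicates 1 to 4. Treg-depleted replicate 1 lay far above the other 7 libraries, at 2.62 times the next highest, and Treg-sufficient replicate 3 lay below them. In experiment 1 both Treg-depleted libraries exceeded both Treg-sufficient ones, whereas in experiment 2 Treg-sufficient replicate 4 was the highest of the 4.

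H2-Aa (ENSMUSG00000036594, chr17:34282744-34287823, minus strand), the alpha chain of I-A, had 5.81, 1.48, 1.43 and 1.28 CPM in Treg-depleted libraries, against 1.56, 1.95, 0.724 and 0.927 CPM in Treg-sufficient libraries. H2-Ab1 (ENSMUSG00000073421, chr17:34257689-34269419, plus strand), its beta chain partner, had 4.54, 1.58, 0.814 and 1.67 CPM in Treg-depleted libraries, against 0.690, 2.02, 0.343 and 1.09 CPM in Treg-sufficient libraries. Both chains of I-A had the same extremes, Treg-depleted replicate 1 at the top and Treg-sufficient replicate 3 at the bottom, with the other 6 libraries overlapping. H2-Eb1 (ENSMUSG00000060586, chr17:34305867-34316674, plus strand), the beta chain of I-E, had 3.71, 2.29, 1.67 and 1.63 CPM in Treg-depleted libraries, against 0.799, 2.19, 1.72 and 1.13 CPM in Treg-sufficient libraries. Its lowest library was Treg-sufficient replicate 1, and the groups overlapped. Its alpha chain partner H2-Ea had 1 read in all 8 libraries together.

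The peptide editor differed less between libraries. H2-DMa (ENSMUSG00000037649, chr17:34119541-34139101, plus strand) had 3.75, 1.48, 2.60 and 2.41 CPM in Treg-depleted libraries, against 1.42, 2.39, 2.10 and 2.48 CPM in Treg-sufficient libraries. H2-DMb1 (ENSMUSG00000079547, chr17:34153072-34160230, plus strand) had 18.5, 12.4, 7.60 and 7.81 CPM in Treg-depleted libraries, against 8.97, 12.0, 7.40 and 8.01 CPM in Treg-sufficient libraries. The 4 libraries of experiment 2 lay within 7.40 to 8.01 CPM for H2-DMb1 whatever the condition, below all 4 of experiment 1. Of the exonic bases of H2-DMa, 360 (10.4%) are shared with Brd2 on the opposite strand, and of those of Ciita 329 (3.45%) with Dexi. The sources used here do not say how strand entered the counting, so reads of such stretches cannot be assigned with certainty.

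**Figure D1:**
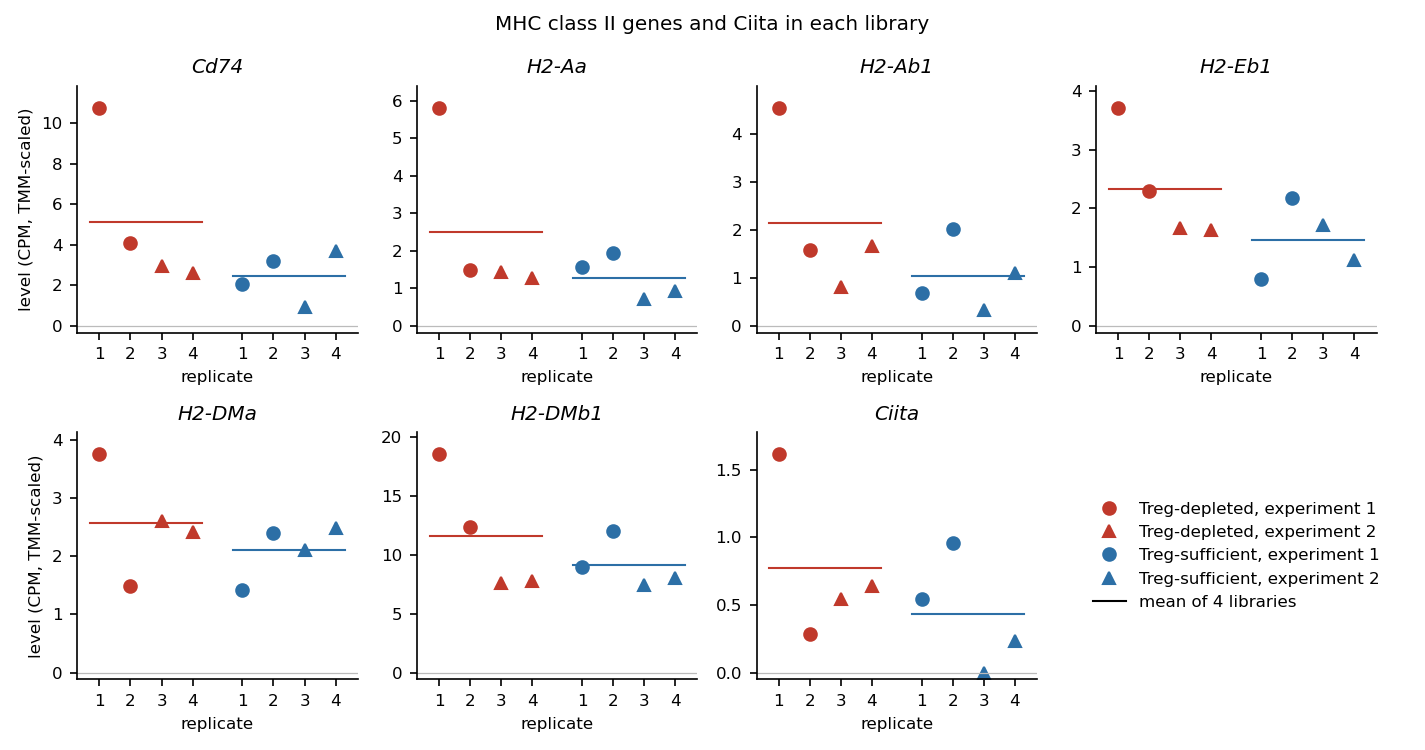
Level (CPM on TMM-scaled library sizes, linear axes that differ between genes) of each class II pathway gene in each library, with Treg-depleted replicates 1 to 4 (red) left of Treg-sufficient replicates 1 to 4 (blue), circles for experiment 1, triangles for experiment 2 and a line at the mean of 4 libraries. Treg-depleted replicate 1 is the highest point in all 7 panels, from 1.62 CPM for Ciita to 18.5 CPM for H2-DMb1.

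Whether the absence of regulatory T cells came with a different level of these genes was asked over all 8 libraries, with the experiment number in the model. All 7 fitted fold changes were positive, against 50.3% of all genes, and their median log2 fold change was 0.89, against 0.00 over all genes. None of them passed the test: 0 of 7 had an adjusted p under 0.05 with edgeR's quasi-likelihood test and Benjamini-Hochberg adjustment, against 0% of the 16495 genes, and 0 of 7 had an unadjusted p under 0.05, as 1175 of all genes did. limma-voom called 0 genes and DESeq2 84, none of them among the 7, although DESeq2 gave Ciita no adjusted p.

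Cd74 averaged 5.11 ± 3.82 CPM in Treg-depleted libraries and 2.48 ± 1.22 CPM in Treg-sufficient libraries (SD, n = 4 each), a log2 fold change of 0.89 ± 0.50 (SE; edgeR adjusted p = 0.701). For the I-A chains the log2 fold changes were 0.89 ± 0.43 for H2-Aa (edgeR adjusted p = 0.696) and 0.99 ± 0.55 for H2-Ab1 (edgeR adjusted p = 0.698). In each of these 3 genes the SD among the Treg-depleted libraries exceeds the difference of the means. H2-Eb1 averaged 2.33 ± 0.973 CPM in Treg-depleted libraries and 1.46 ± 0.617 CPM in Treg-sufficient libraries, a log2 fold change of 0.62 ± 0.40 (edgeR adjusted p = 0.737). Ciita had the largest estimate and the largest error of the 7, at 1.16 ± 0.82 (edgeR adjusted p = 0.758). The H2-M chains had the smallest estimates, 0.30 ± 0.35 for H2-DMa and 0.28 ± 0.20 for H2-DMb1 (edgeR adjusted p = 0.852 and 0.761).

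One library carried much of these estimates. Without Treg-depleted replicate 1 the median over the 7 genes was 0.37, with H2-DMa at -0.067, H2-DMb1 at 0.09, H2-Aa at 0.32, H2-Eb1 at 0.37, Cd74 at 0.40, H2-Ab1 at 0.55 and Ciita at 0.88. No other library, left out singly, brought the median below 0.64 or gave any of the 7 genes a negative value.

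**Figure D2:**
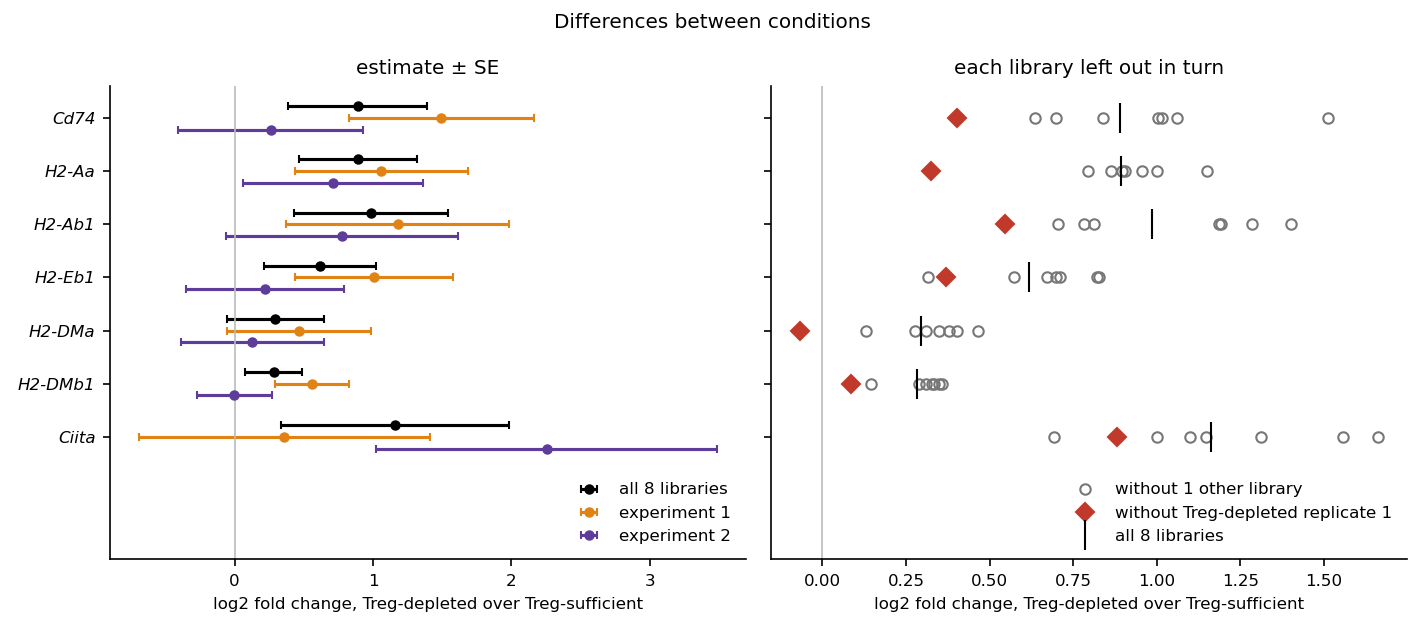
Left, log2 fold change of each gene, Treg-depleted over Treg-sufficient, with bars for 1 SE, over all 8 libraries (black), within experiment 1 (orange) and within experiment 2 (purple). Right, the estimate over all libraries (line) and with each library left out in turn (circles), where the red diamond leaves out Treg-depleted replicate 1 and lies at -0.067 for H2-DMa, the lone value below 0.

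Estimates for the 7 genes were larger in experiment 1 than in experiment 2 except for Ciita, and none passed the test in either. In experiment 1 the 7 log2 fold changes, Treg-depleted over Treg-sufficient, ran from 0.36 ± 1.05 for Ciita to 1.5 ± 0.67 for Cd74 (edgeR adjusted p = 0.961 and 0.473), with a median of 1.01. All 7 were positive, as were 52% of all genes, and 0 of 7 were called with edgeR, against 0.606% of the 16495 genes (100 genes, 37 of them higher in Treg-depleted libraries). DESeq2 and limma-voom likewise called 0 of the 7, and 0 had an unadjusted p under 0.05. Without Treg-depleted replicate 1 the median was 0.20, and 3 genes were negative: Ciita at -1.40, H2-DMa at -0.38 and H2-Aa at -0.27.

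In experiment 2 the median was 0.26 and 6 of 7 were positive, as were 50.2% of all genes, and H2-DMb1, at -0.00 ± 0.27, was the gene nearest to no difference. Ciita had the largest value, 2.26 ± 1.23, on 14 and 18 reads in Treg-depleted and 0 and 7 reads in Treg-sufficient libraries. The rest ran from 0.13 ± 0.52 for H2-DMa to 0.78 ± 0.84 for H2-Ab1. Of the 7 genes, 0 were called with edgeR (adjusted p = 0.9995 for each), against 0% of all genes, where 288 had an unadjusted p under 0.05 and 0 of these were among the 7. DESeq2 called 1 gene and limma-voom 0, neither among the 7.

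The difference between the experiments' effects was itself tested. Experiment 2 minus experiment 1, it was -1.24 ± 0.94 for Cd74, -0.79 ± 0.80 for H2-Eb1, -0.56 ± 0.38 for H2-DMb1 and between -0.40 and -0.34 for H2-Ab1, H2-Aa and H2-DMa, while Ciita was at 1.89 ± 1.61. With edgeR, 0 of the 7 were called (smallest adjusted p = 0.960), against 0% of all genes. At an unadjusted p under 0.05 there were 923 genes and 0 of the 7, limma-voom called 0 genes and DESeq2 182, none of them among the 6 to which it gave an adjusted p.

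Library by library, Treg-depleted replicate 1 was the highest of 8 in 7 of 7 genes, a position it held in 22.5% of all genes. It was at least 1.5 times the next highest library in 5 of 7, against 3.23% of all genes, and at least 2 times in 3 of 7 (Cd74, H2-Aa and H2-Ab1), against 0.958%. Treg-sufficient replicate 3 was the lowest in 5 of 7, against 19.5%, and Treg-sufficient replicate 1 in the other 2, H2-Eb1 and H2-DMa, against 7.33%. The next highest library was Treg-depleted replicate 2 for Cd74, H2-Eb1 and H2-DMb1, Treg-depleted replicate 3 for H2-DMa and Treg-sufficient replicate 2 for H2-Aa, H2-Ab1 and Ciita.

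The second Treg-depleted library of experiment 1 did not share the height of the first. Treg-depleted replicate 1 exceeded both Treg-sufficient libraries of its experiment in 7 of 7 genes (40.3% of all genes), whereas replicate 2 did so in 3 of 7 (38.7%) and lay below both in 2, H2-Aa and Ciita (40.3%). Treg-depleted replicates 3 and 4 exceeded both Treg-sufficient libraries of experiment 2 in 3 of 7 genes each (34% and 27.2%).
All 4 Treg-depleted libraries exceeded all 4 Treg-sufficient ones in 0 of 7 genes (1.27%). Within experiment 1 the conditions did not overlap for Cd74, H2-Eb1 and H2-DMb1, 3 of 7 genes (18.6%). Within experiment 2 they did not for H2-Aa and Ciita, 2 of 7 (16.7%), and no gene was free of overlap in both (3.79%).

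For H2-DMb1 the libraries separated by experiment, whereas the conditions were free of overlap within experiment 1 alone. Over both conditions, H2-DMb1 averaged 7.7 ± 0.265 CPM in experiment 2 and 13.0 ± 4.0 CPM in experiment 1 (SD, n = 4 each), a log2 fold change of -0.73 ± 0.20 (edgeR adjusted p = 0.0864). H2-Aa averaged 1.09 ± 0.323 CPM in experiment 2 and 2.70 ± 2.08 CPM in experiment 1, a log2 fold change of -1.26 ± 0.43 (edgeR adjusted p = 0.133). For these 2 of the 7 genes all 4 libraries of experiment 2 were below all 4 of experiment 1, as in 5.86% of all genes.
Across the 7 genes the median was -0.81, against -0.02 over all genes, with Ciita at -1.53 ± 0.83, H2-Ab1 at -1.11 ± 0.55, Cd74 at -0.81 ± 0.50, H2-Eb1 at -0.48 ± 0.40 and H2-DMa at 0.10 ± 0.35. With edgeR 0 of the 7 were called, against 1.62% of all genes. At an unadjusted p under 0.05 there were 2 of the 7 and 3633 of the 16495 genes tested. DESeq2, which called 2167 genes, called H2-Aa (adjusted p = 0.0490) and H2-DMb1 (adjusted p = 0.0137), and limma-voom called 296 genes and 0 of the 7. Without Treg-depleted replicate 1 the median was -0.54.

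Other class II chains were at or near 0. H2-Oa and H2-Eb2 had no read in any of the 8 libraries, which with 3 reads as the limit allows at most 0.134 CPM in the shallowest, and H2-Ob had 1 read in all. H2-DMb2, the second H2-M beta chain gene and the 1 of these 5 that was tested, had 2 to 21 reads in Treg-depleted and 3 to 16 in Treg-sufficient libraries, a log2 fold change of 0.55 ± 0.74 (edgeR adjusted p = 0.876). It too was highest in Treg-depleted replicate 1.

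Genes that prepare and turn over class II molecules were for the most part expressed far more. Of 8 such genes 7 were tested, 0 were called with edgeR in either direction, 0 had an unadjusted p under 0.05, and 6 were positive with a median log2 fold change of 0.13, Treg-depleted over Treg-sufficient. Ctsb, a lysosomal protease, averaged 691 ± 45.7 CPM in Treg-depleted libraries and 652 ± 72.6 CPM in Treg-sufficient libraries. Ctsl, which trims the invariant chain in thymic epithelium, averaged 106 ± 17.1 CPM in Treg-depleted libraries and 105 ± 16.5 CPM in Treg-sufficient libraries. The means of both proteases differed by less than the SD of either group. Sppl2a, which clears the last fragment of the invariant chain, had 129, 107, 98.4 and 94.2 CPM in Treg-depleted libraries, against 93.1, 108, 83.4 and 105 CPM in Treg-sufficient libraries. Ctss, which trims the invariant chain in dendritic cells and B cells, had 0 to 6 reads in Treg-depleted and 0 to 18 in Treg-sufficient libraries and was too low to test. The factors that sit on the X and Y boxes (Rfx5, Rfxap, Rfxank, Nfya, Nfyb, Nfyc and Creb1, 7 genes) had small estimates. With edgeR 0 of 7 were called in either direction, 0 had an unadjusted p under 0.05, and 1 was positive, with a median of -0.09 and a range from -0.14 to 0.12. The most abundant were Creb1 at -0.024 ± 0.090, which binds the cAMP response element, and Nfya at -0.087 ± 0.11 and Nfyb at 0.12 ± 0.11, subunits of the factor on the Y box.

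Genes of interferon-gamma signalling, which lie upstream of Ciita, held the one call between conditions in these lists. Over all libraries 0 of 7 were called with edgeR, 1 had an unadjusted p under 0.05, 6 were positive and the median log2 fold change was 0.27. In experiment 1, 1 of 7 was called higher, against 0.224% of all genes: Irf1, a transcription factor induced by interferon-gamma. It had 85.8, 66.9, 32.5 and 27.5 CPM in Treg-depleted replicates 1 to 4, against 32.0, 24.2, 35.2 and 30.8 CPM in Treg-sufficient replicates 1 to 4. Both Treg-depleted libraries of experiment 1 stood above every other library, and those of experiment 2 lay among the Treg-sufficient ones. Its log2 fold change was 1.44 ± 0.20 in experiment 1 (edgeR adjusted p = 0.0364, limma-voom adjusted p = 0.0318) and -0.14 ± 0.20 in experiment 2 (edgeR adjusted p = 0.9995), a difference of -1.58 ± 0.29 that did not pass with edgeR (adjusted p = 0.254) or limma-voom (adjusted p = 0.254) and passed with DESeq2 (adjusted p = 0.000694). The call in experiment 1 was lost when any one of 7 libraries was left out (adjusted p from 0.0673 to 0.134 with edgeR) and held without Treg-depleted replicate 2 (0.0140), while its estimate stayed between 1.22 and 1.66. Treg-depleted replicate 2 was second highest for Irf1, as it was for Cd74, H2-Eb1 and H2-DMb1.
The gene with the unadjusted p under 0.05 over all libraries was Jak2, a kinase of the interferon-gamma receptor, chosen after its values were seen. It had 115, 104, 92.7 and 96.5 CPM in Treg-depleted libraries, against 70.3, 78.1, 72.8 and 88.8 CPM in Treg-sufficient libraries. All 4 Treg-depleted libraries lay above all 4 Treg-sufficient ones, as in 1.27% of all genes. Its log2 fold change was 0.40 ± 0.11 (edgeR adjusted p = 0.686).

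Of 15 genes that interferon-gamma induces in many cells, 13 were tested, and in all 13 the highest library was the same as in the class II genes, Treg-depleted replicate 1 (22.5% of all genes). With edgeR 0 of these were called, 1 had an unadjusted p under 0.05, and 13 of 13 were positive, with a median log2 fold change of 0.41. Tap1, a transporter of peptides for MHC class I, had 122, 74.0, 80.5 and 80.4 CPM in Treg-depleted libraries, against 83.3, 105, 86.3 and 81.4 CPM in Treg-sufficient libraries. Nlrc5, the class I counterpart of Ciita, had 108, 52.0, 51.4 and 57.9 CPM in Treg-depleted libraries, against 51.6, 83.5, 36.1 and 43.8 CPM in Treg-sufficient libraries. The groups overlapped for both, with Treg-depleted replicate 1 highest and Treg-sufficient replicate 2 second. Psmb9, an immunoproteasome subunit, had the same 2 libraries on top, at 31.1 CPM in Treg-depleted replicate 1 and 24 CPM in Treg-sufficient replicate 2, with the rest between 13.1 and 17.6 CPM.
Treg-sufficient replicate 3 was the lowest in 10 of the 13, against 19.5% of all genes. The highest library was at least 1.5 times the next in 9 of 13, against 3.23%. Chosen after their values were seen, Cxcl9, a chemokine that draws T cells, and Gbp2, a guanylate-binding protein, had the widest gaps at 5.07 and 3.72 times the next library. Cxcl9 had 43.1, 7.26, 3.53 and 4.01 CPM in Treg-depleted libraries, against 5.74, 8.50, 2.78 and 2.91 CPM in Treg-sufficient libraries. Gbp2 had 41.3, 11.1, 4.77 and 5.04 CPM in Treg-depleted libraries, against 5.67, 9.36, 1.37 and 5.60 CPM in Treg-sufficient libraries. In both, one library stood alone and the other 7 overlapped.
The one with an unadjusted p under 0.05 was Igtp, an interferon-induced GTPase, also chosen after its values were seen. It had 25.2, 12.7, 10.6 and 6.42 CPM in Treg-depleted libraries, against 8.10, 8.64, 4.50 and 4.93 CPM in Treg-sufficient libraries. In each experiment both Treg-depleted libraries exceeded both Treg-sufficient ones, as in 3.79% of all genes and 0 of the 7 class II genes. Its log2 fold change was 1.02 ± 0.26 (edgeR adjusted p = 0.686).
Without Treg-depleted replicate 1, 7 of the 13 were positive and the median was 0.03, against 6 of 7 and 0.37 for the class II genes. The 2 lists were not tested against each other. Within experiment 1 the median was 0.68 with that library and -0.40 without it, when 4 of 13 were positive. Experiment 2 was below experiment 1 in 13 of 13, as in 8691 of the 16495 genes tested, with a median of -0.85, against -0.02. Without Treg-depleted replicate 1 it was below in 11 of 13, as in 8464 of 16793 genes, with a median of -0.41. With edgeR 0 of the 13 were called, against 1.62% of all genes. At an unadjusted p under 0.05 there were 8 of the 13 and 3633 of all genes.

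**Figure D3:**
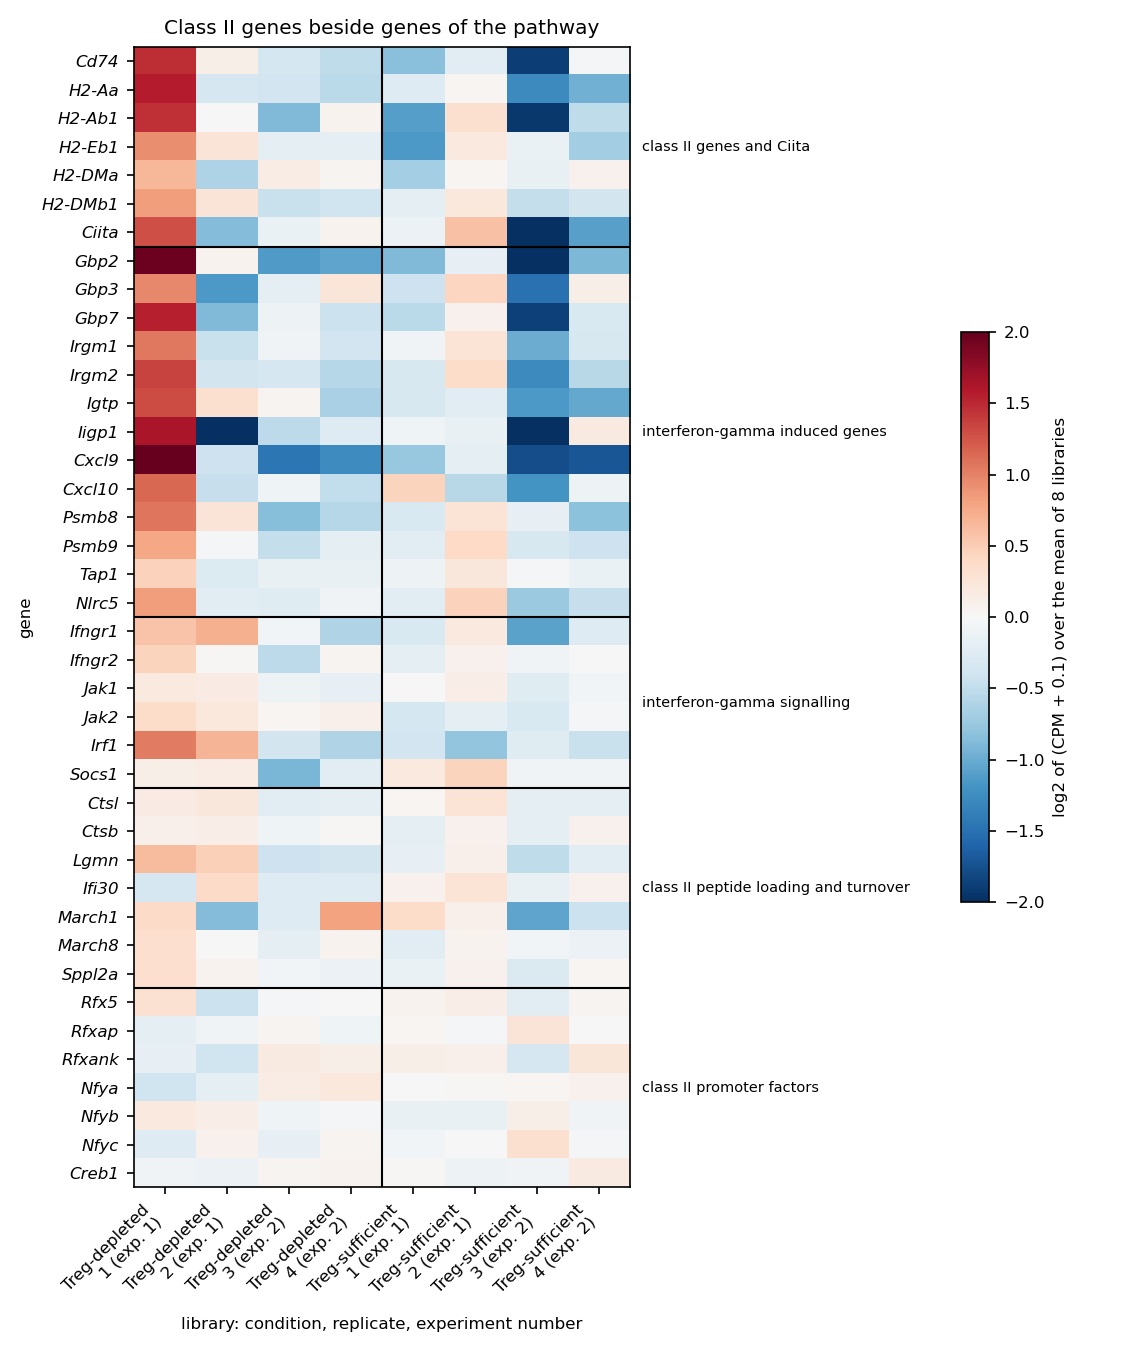
Level of each class II pathway gene and of most listed pathway genes that were tested, as log2 of (CPM + 0.1) over the gene's mean of 8 libraries on a color scale that ends at -2 and 2, with Treg-depleted libraries left of Treg-sufficient ones. The first column, Treg-depleted replicate 1, is red through the class II and interferon-gamma induced genes, Treg-sufficient replicate 3 is blue in most of them, and the promoter factors at the bottom are pale throughout.

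Markers of the cells that usually make class II molecules were low. Langerhans cell markers (10 genes, 2 of them tested) summed to 1.97 to 6.03 CPM in Treg-depleted libraries and 4.32 to 5.32 CPM in Treg-sufficient libraries, with Treg-depleted replicate 1 at 4.96. Of that sum 42 to 131 reads a library were Cd68. Cd207, which defines Langerhans cells, had 12, 0, 0 and 9 reads in Treg-depleted libraries, against 3, 13, 0 and 6 in Treg-sufficient libraries. Csf1r, also a macrophage marker, had 11, 0, 2 and 7 reads in Treg-depleted libraries, against 5, 11, 0 and 7 in Treg-sufficient libraries. Ptprc, the CD45 of all leukocytes, had 0 to 6 reads in Treg-depleted and 0 to 11 in Treg-sufficient libraries, and Itgax 0 to 5 and 0 to 7.
Dendritic cell markers (8 genes, 1 tested) summed to 0.646 to 1.65 CPM in Treg-depleted libraries and 0.526 to 1.42 CPM in Treg-sufficient libraries, with Treg-depleted replicate 1 highest, Clec9a at 0 reads in all 8 libraries and Flt3 at 0 to 3 reads in Treg-depleted and 0 to 7 in Treg-sufficient ones. Zbtb46 had 7 to 24 reads in Treg-depleted libraries, 24 of them in replicate 1, and 1 to 21 in Treg-sufficient libraries. Ccr7 had 7 and 4 reads in Treg-depleted replicates 1 and 2 and 0 in the other 6 libraries. Macrophage markers (8 genes, 1 tested) summed to 1.25 to 2.50 CPM in Treg-depleted and 1.00 to 4.58 CPM in Treg-sufficient libraries, highest in Treg-sufficient replicate 1. Of that sum 22 to 74 reads a library were Cd14, 67 of 125 in Treg-sufficient replicate 1. Lyz2 had 0 to 4 reads in Treg-depleted and 0 to 24 in Treg-sufficient libraries, 24 of them in replicate 1. C1qa, C1qb and C1qc had 5, 6 and 8 reads in that library and 0 to 2 in every other. Adgre1 had 0 reads in every Treg-depleted and 0 to 8 in Treg-sufficient libraries, and Mrc1 had 0 to 5 and 0 to 2. B cell markers (5 genes, 2 tested) summed to 1.07 to 2.63 CPM in Treg-depleted libraries and 1.17 to 2.60 CPM in Treg-sufficient libraries.
T cell markers (9 genes, 2 tested), whose cells are the main source of interferon-gamma in skin with natural killer cells, summed to 3.0 to 10.2 CPM in Treg-depleted libraries and 5.79 to 12.8 CPM in Treg-sufficient libraries, and to 3.21 CPM in Treg-depleted replicate 1. Most of this sum was 1 gene, Lck, with 79 of 95 reads in Treg-depleted replicate 1 and 275 of 340 in Treg-sufficient replicate 3. Cd3e had 0 reads in 7 of 8 libraries, and Cd8a had 0 to 6 reads in Treg-depleted and 2 to 6 in Treg-sufficient libraries, with 6 in Treg-depleted replicate 1.
The class II genes together summed to 47.8, 22.1, 18.3 and 18.4 CPM in Treg-depleted libraries and 16.2, 25.1, 13.0 and 17.7 CPM in Treg-sufficient libraries. The sums of B cell and dendritic cell markers were highest in the same library as the class II genes, at 2.63 and 1.65 CPM in Treg-depleted replicate 1, against next values of 2.60 and 1.42 CPM in Treg-sufficient libraries. The part of other cells in the result was not tested. Treg-sufficient replicate 3, the lowest library for 5 of 7 class II genes, is one of the pair with the fewest genes detected, and the part of this in the result was not tested. Leaving out that pair, an alternative added after seeing the data, removes Treg-depleted replicate 2 from experiment 1 and leaves replicate 1 there alone against both Treg-sufficient libraries. In that fit 570 genes were called in experiment 1, among them Cd74 at 2.02 (edgeR adjusted p = 0.0408), and the median of the 7 was 1.31, so these values rest on Treg-depleted replicate 1.

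**Figure D4:**
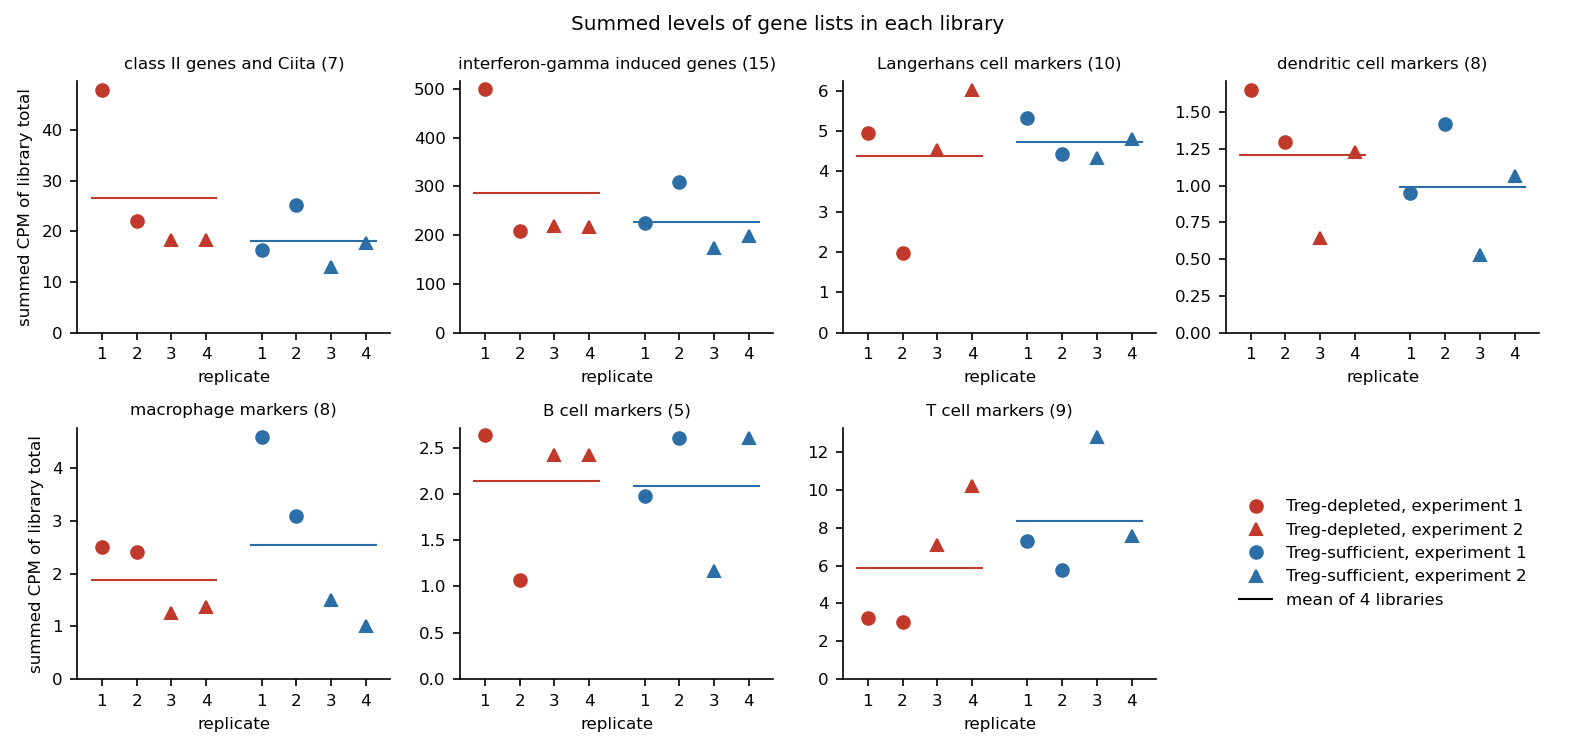
Summed level (CPM of the unscaled library total, axes that start at 0 and differ between panels) of the class II pathway genes, the interferon-gamma induced genes and 5 marker lists for other cells, with Treg-depleted replicates 1 to 4 (red) left of Treg-sufficient replicates 1 to 4 (blue), circles for experiment 1, triangles for experiment 2 and a line at the mean. Treg-depleted replicate 1 stands at 47.8 CPM for the class II genes and 499 CPM for the induced genes, while its T cell markers, of which Lck is most, are at 3.21 CPM, the second lowest sum.

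The 10 genes whose pattern over the 8 libraries was most like the mean standardized log2 CPM of the 7 class II genes, among 12941 genes whose mean normalized count reached 50, were Garnl3, Zyg11b, Zfp874b, Irf9, Rnf31, Fgfr1, Srsf5, Ctdsp2, 2010111I01Rik and Coq8a. Pearson's r ran from 0.975 to 0.988 over these 8 libraries, which share depth and batch differences, and is a description. Irf9, at rank 4 with r = 0.982, is a subunit of the factor through which type I interferons act. Among listed pathway genes the highest were Irgm2 at rank 56 (r = 0.953), Nlrc5 at rank 96 (r = 0.940) and the costimulator list's Cd274 at rank 97 (r = 0.939), and Irf1 was at rank 2733 (r = 0.589). The list of 10 depends on the measure: 0 of them were in the top 10 by Spearman's rho and 2 in that without Treg-depleted replicate 1. In the top 10 by residuals within experiments, which leave the condition in, there were 4.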

How the data were processed

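The authors deposited raw read counts per gene, without normalization, for 8 libraries, with 5 tallies of reads given to no gene. Per the labels' protocols, RNeasy served to extract RNA, and the TruSeq Stranded mRNA kit to build libraries. Per the submitters' processing notes the build is GRCm38.p4 and the tools are TopHat2 (version 2), SAMtools, HTSeq and DESeq2, with no role, annotation release or strand setting stated. The tallies entered neither library sizes nor tests: 6.63 to 10.8% of reads lay in no gene, 2.72 to 3.01% were ambiguous and 26.2 to 30.6% aligned to several places. GENCODE M21 (GRCm38) paired 45229 of 46078 identifiers with a symbol. No count was recorded for 18467 genes.

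Tests used edgeR 4.0.16 (R 4.3.3) with its quasi-likelihood F-test after filterByExpr at a minimum count of 10 and TMM scaling. Each SE of a log2 fold change was derived from that test, as the absolute estimate divided by the square root of F. P-values were adjusted by Benjamini-Hochberg across all 16495 genes that passed, and an adjusted p under 0.05 was a call. Condition and experiment number entered 1 model (5 residual degrees of freedom), while effects within experiments and their difference came from a fit of the 4 combinations, 2 libraries each, with 4 residual degrees of freedom. The steps were also run on simulated counts, with outcomes not reported here. Changes were placed only in genes with higher mean counts than Ciita, so those runs do not cover genes as low as Ciita. DESeq2 1.42.0 and limma 3.58.1 (voom), other scaling factors, no filter, other terms and leaving out libraries served as alternatives, 17 in all. Marker sums use unscaled library totals. The 7 genes, the gene lists, the tests and the alternatives were chosen with earlier results of these data known. Named genes are all 7 in each comparison and, from each list, those called in any comparison or else up to 3 with the highest mean CPM. Other names were chosen after their values were seen. Some genes of the lists are counted in them and not reported by name here.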

Additional observations from a re-analysis of the deposited data

Results flagged for a closer look

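H2-Aa stood at 5.81 CPM in Treg-depleted replicate 1, against 1.28 to 1.48 CPM in the other 3 Treg-depleted libraries, and Cxcl9 at 43.1 CPM in the same library, against 3.53 to 7.26 CPM. In both, the gap from the highest library to the next, as a share of the whole range of the 4 libraries, exceeded Dixon's 95% critical value. The rule was applied to 20 groups of 4 libraries, and chance picks out about 1 group in 20. Cxcl9 was among the genes checked because its values had been seen.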

How the results depend on the processing

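The median log2 fold change of the 7 class II genes between conditions kept its sign under all 17 alternatives. The number of genes called did not hold. Without the filter it was 820 between conditions, 1152 within experiment 1, 132 within experiment 2, 534 for the difference of the effects and 2443 between experiments. With DESeq2 it was 84, 721, 1, 182 and 2167 in the same order. Leaving out replicate 2 of each condition, the libraries with high Xist, leaves Treg-depleted replicate 1 alone against Treg-sufficient replicate 1 in experiment 1. It gave 487 genes and a median of 1.85 within experiment 1, 89 genes and a median of -1.23 for the difference, and 2 genes between experiments. Leaving out both libraries with the fewest genes, chosen after seeing the data, gave 570 within experiment 1 and 0 between experiments. Dropping the condition term also gave 0 between experiments. With each library left out in turn the counts ran from 0 to 442 within experiment 1, 0 to 9 for the difference and 0 to 651 between experiments, and the medians from 0.20 to 1.28 within experiment 1 and -0.93 to 0.51 for the difference. A group left with 1 library was assumed to vary like the others.

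Signs turned for H2-DMb1 within experiment 2, at 0.016 with upper-quartile factors and 0.0091 without the filter. They turned without the libraries of fewest genes for Cd74 within experiment 2 (-0.40) and H2-DMa between experiments (-0.11). With 1 library left out, H2-DMa ran from -0.067 to 0.46 between conditions, -0.38 to 0.94 within experiment 1, -0.82 to 0.51 for the difference and -0.085 to 0.45 between experiments. Within experiment 1 H2-Aa ran from -0.27 to 1.69 and Ciita from -1.40 to 1.07. Within experiment 2 Cd74 ran from -0.40 to 1.54, H2-Eb1 from -0.056 to 0.55 and H2-DMb1 from -0.058 to 0.059. For the difference H2-Ab1 ran from -1.33 to 0.67, Cd74 from -1.89 to 0.049 and H2-Aa from -0.98 to 0.97. Without the filter Cd74 was called within experiment 1 (1.46, edgeR adjusted p = 0.0391) and H2-Aa and H2-DMb1 between experiments (0.0364 and 0.0219). The cause was not tested.

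The title letters A to D are shared by the conditions. Same-letter libraries correlated in their deviations from the condition mean at 0.179, 0.130, 0.0941 and 0.314, and A and C correlated better with another letter, so the letters were taken as shared names only. With the replicate block in place of the experiment number 0 genes were called, the median of the 7 was 0.74 and 0 of them were called. With 0 to 539 reads a library, differences within the spread of 4 libraries were not detectable for these genes.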

Other observations

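Costimulators, which accompany class II molecules when T cells are activated, were also low, with 4 of 7 tested and 0 called with edgeR between conditions. Cd274, the inhibitory ligand PD-L1, had 7.56, 1.67, 2.33 and 1.60 CPM in Treg-depleted libraries, against 1.67, 2.39, 1.07 and 1.26 CPM in Treg-sufficient libraries. It had the extremes of the class II genes, Treg-depleted replicate 1 at 3.16 times the next library and Treg-sufficient replicate 3 lowest, with a log2 fold change of 0.98 ± 0.45 (edgeR adjusted p = 0.696). Icosl, the ligand of ICOS, had 4.81, 8.84, 7.09 and 5.50 CPM in Treg-depleted libraries, against 6.83, 8.47, 6.41 and 8.71 CPM in Treg-sufficient libraries, and was lowest in Treg-depleted replicate 1. Cd86 had 1 read in all 8 libraries together.

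The 4 markers of regulatory T cells summed to 36.9, 13.7, 11.5 and 6.64 CPM in Treg-depleted and 12.2, 14.5, 5.64 and 8.07 CPM in Treg-sufficient libraries. Of the 1092 reads in Treg-depleted replicate 1, 1053 were Ikzf2, a transcription factor that other cells express too, and 21 were Foxp3, which had 0 to 21 reads in Treg-depleted and 4 to 22 in Treg-sufficient libraries. These sorted cells are not regulatory T cells, so the counts do not check the depletion.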
